A study of Mus musculus with 8 samples.

Results

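Capillary endothelial cells that carried mRNA of the chemokine Cxcl9 were picked out of 8 single-cell libraries of sorted mouse endothelium. A cell counted as a member if it held at least 1 unique molecular identifier (UMI, a tag that stands for 1 captured mRNA molecule) of Cxcl9 and UMIs of at least 2 of the 6 capillary genes Gpihbp1, Cd300lg, Rgcc, Car4, Timp4 and Tcf15. It also had to hold a UMI of Pecam1 or Cdh5, and none of Gja5, Selp, Prox1, Ptprc and Adipoq, which mark arterial, venous and lymphatic endothelium, leukocytes and adipocytes. After cells under 500 UMIs, under 300 genes or over 10% mitochondrial UMIs were set aside, 23996 remained, and 3083 of them met all conditions (12.85%). The same rule without its Cxcl9 condition, called the capillary gate here, held 7235 cells, so 42.61% of them were members and 4152 were free of Cxcl9. Counts of these 14 genes chose the cells, so their levels are given below as a description and took no test.

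The study compared endothelium of the mesentery and of epididymal adipose tissue in mice on normal chow or on a high fat diet. All mice were male and of the genotype ROSA26-eYFP+/+ Cdh5-CreERT2+, in which tamoxifen turns on a yellow fluorescent protein (YFP) in cells that use the promoter of the endothelial gene Cdh5. All of them, the chow groups included, ate tamoxifen food for 2 weeks from 6 weeks of age, and then chow with 5.8% fat or food with 60% fat for 12 to 13 weeks from 8 weeks of age. Each library was made from YFP-positive cells of 6 mice combined, with actinomycin D, a blocker of transcription, present during the digestion. The 4 groups of tissue and diet had 2 libraries each, runs A and B, because the whole experiment was carried out again. A library is therefore the unit of replication, and cells of 1 library are not replicates. The share of members in a library cannot be told apart from unequal survival of cell types through digestion and sorting.

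Run A gave 3461360 to 6714473 UMIs per library and run B 18829960 to 36779289. The mitochondrial limit took out 22.8 to 30.8% of the barcodes in run A and 5.4 to 8.8% in run B. Run A gave few of the 3083 members: 5 from mesentery on chow, 3 from adipose on chow, 3 from mesentery on high fat and 31 from adipose on high fat. Run B, in the same order, gave 365, 1076, 581 and 1019 members. Any pair of libraries shared 0 to 10 cell barcodes, over 28 pairs. Tests across genes used the 5 libraries with at least 10 members, which are the run B libraries and adipose on high fat A. Values per library follow in the order mesentery on chow, adipose on chow, mesentery on high fat and adipose on high fat, all of run B, and then adipose on high fat of run A.

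Cxcl9, together with Cxcl10 and Cxcl11, is a ligand of the receptor CXCR3, which guides activated T cells and NK cells into tissue. Its transcription is known to be switched on by interferon gamma, which acts through palindromic promoter sites called GAS, while type I interferons act through ISRE sites. The capillary genes of the rule mark endothelium that takes up fatty acids: Gpihbp1 carries lipoprotein lipase to the vessel lumen and Timp4 inhibits matrix metalloproteinases.

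The promoters of a few genes of the interferon gamma program are shown because the results below turn on Cxcl9, Cxcl10 and the interferon-induced GTPases. Each line gives the 250 bases before the annotated start, 5′ to 3′ on the gene's strand, from RefSeq on build GRCm38.p6. Capitals mark matches on either strand to the GAS letters TTCNNNGAA or the ISRE letters GAAANNGAAA, where N is any base. Cxcl9 lies at chr5:92328080-92328329 on the minus strand, Cxcl10 at chr5:92348890-92349139 on the minus strand, Gbp7 at chr3:142530086-142530335 on the plus strand and Tgtp2 at chr11:49064213-49064462 on the minus strand.
Cxcl9: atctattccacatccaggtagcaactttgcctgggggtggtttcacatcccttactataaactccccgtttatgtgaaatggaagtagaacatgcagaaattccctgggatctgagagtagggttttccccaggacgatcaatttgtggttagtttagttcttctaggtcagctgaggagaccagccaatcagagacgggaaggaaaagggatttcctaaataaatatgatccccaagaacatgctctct
Cxcl10: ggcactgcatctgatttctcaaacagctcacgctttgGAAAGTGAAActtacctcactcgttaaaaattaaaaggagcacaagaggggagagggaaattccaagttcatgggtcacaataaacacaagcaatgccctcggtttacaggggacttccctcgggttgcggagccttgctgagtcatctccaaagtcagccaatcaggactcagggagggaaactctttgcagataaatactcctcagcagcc
Gbp7: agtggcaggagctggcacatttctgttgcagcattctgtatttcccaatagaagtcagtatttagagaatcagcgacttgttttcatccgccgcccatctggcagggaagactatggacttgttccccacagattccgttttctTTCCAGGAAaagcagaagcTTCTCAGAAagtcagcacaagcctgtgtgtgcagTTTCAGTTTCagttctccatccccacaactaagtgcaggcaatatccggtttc
Tgtp2: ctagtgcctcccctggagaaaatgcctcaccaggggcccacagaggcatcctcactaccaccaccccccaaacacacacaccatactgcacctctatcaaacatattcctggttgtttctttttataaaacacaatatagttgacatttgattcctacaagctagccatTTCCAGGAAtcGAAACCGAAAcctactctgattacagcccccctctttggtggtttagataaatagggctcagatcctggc

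Tgtp2 had a GAS match at position -81 and an ISRE match at -70, and Gbp7 had GAS matches at -106 and -87 and an ISRE match at -53, counted from the start. Cxcl10 had an ISRE match at -213. The Cxcl9 window held neither set of letters, which says nothing about sites elsewhere or about sites in the window with other letters. All 10 of the 17 listed guanylate-binding protein and immunity-related GTPase genes that were found in RefSeq's promoter table had an ISRE match in the 250 bases before to 50 after the start, and 6 of them a GAS match. Of all 32851 such windows, 3.44% had an ISRE match, 8.3% a GAS match and 11.29% either. Among type I interferon-stimulated genes, 13 of 19 windows held either match, against 0 of 9 windows of fatty acid handling genes.

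Cxcl9 was found in capillary cells of every library, most often in adipose on chow of run B. In run B, 30.9, 58.0, 35.4 and 46.8% of the capillary gate cells carried it, with exact 95% binomial intervals of 28.3 to 33.6, 55.8 to 60.3, 33.1 to 37.8 and 44.7 to 49.0%. In run A the shares were 7.25, 3.13, 4.17 and 21.1%, on 69 to 147 gate cells. These intervals cover counting error only. The adipose library exceeded the mesentery library on both diets in run B, and on high fat but not on chow in run A.

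A cell with more UMIs more easily shows a Cxcl9 UMI, so each cell was also thinned in expectation to 1000 UMIs, leaving out shallower cells. The shares then were 18.2, 34.0, 14.7 and 23.6% in run B and 2.95, 2.19, 2.59 and 15.6% in run A. By group they were 10.6% ± 10.8 in mesentery on chow, 18.1% ± 22.5 in adipose on chow, 8.63% ± 8.55 in mesentery on high fat and 19.6% ± 5.62 in adipose on high fat (SD, n = 2 libraries each). The spread between the runs of a group was wider than the spread between the groups.

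In a test that did not pair the libraries by run, neither diet nor tissue gave a difference in the share of Cxcl9-carrying cells at p under 0.05. The 4 high fat libraries had a mean of 14.1% ± 8.66 and the 4 chow libraries 14.3% ± 15.0 (SD), a difference of -0.21 percentage points with p = 0.9714 in a two-sided exact permutation test. Within run A high fat was higher by 6.53 points and within run B lower by 6.96, with 2 libraries against 2 and no test. The mesentery libraries had 9.60% ± 8.02 against 18.8% ± 13.4 in adipose, a difference of -9.25 points with an exact permutation p of 0.2857. That difference was -6.14 points within run A and -12.4 within run B. The smallest p that 4 against 4 libraries allow is 0.0286. With labels permuted within runs, the exact permutation p was 0.9444 for diet and 0.1667 for tissue. The smallest p possible there is 0.0556, so that test could not pass 0.05.

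**Figure D1:**
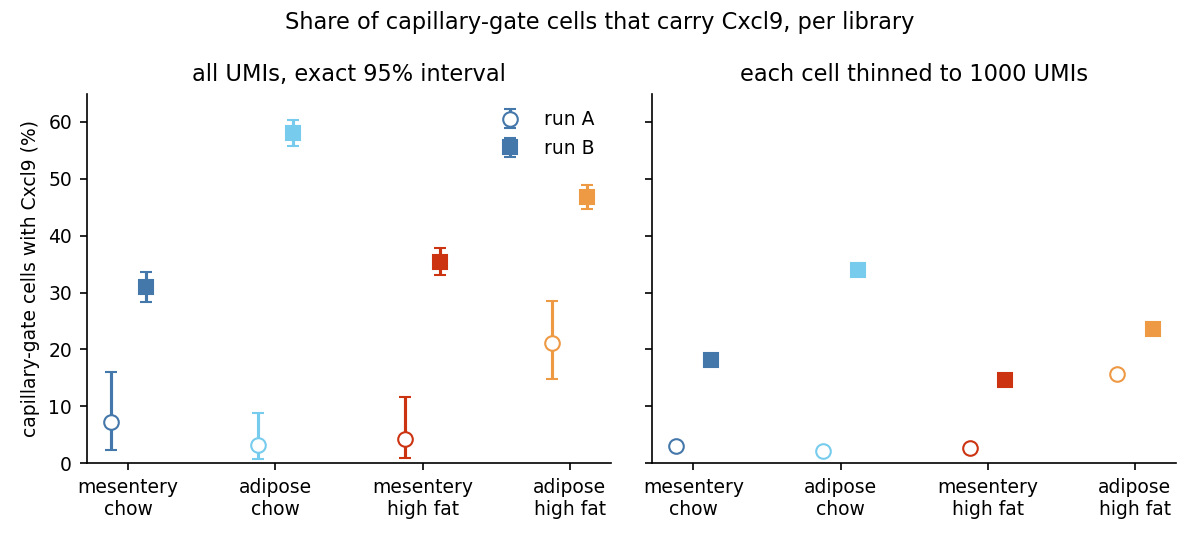
Percent of capillary gate cells with a Cxcl9 UMI in each of 8 libraries, with all UMIs and exact 95% binomial intervals (left) and after thinning each cell to 1000 UMIs (right). Open circles are run A and filled squares run B. Run B lies above run A in all 4 groups, and adipose on chow of run B is highest at 58.0% and 34.0%.

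The condition on Adipoq weighed on the groups unequally. It took out 41.8 and 52.1% of otherwise eligible capillary cells in the chow libraries of run B, against 8.2 and 2.0% in the high fat libraries and 0.0 to 4.0% in run A. Of the 131 T and B cells of mesentery on chow B, 2 held an Adipoq UMI. With Adipoq allowed, the thinned shares in run B were 20.7, 35.0, 14.9 and 23.6%. Across all libraries 2280 cells with Cxcl9 also held Adipoq, so the members are the Adipoq-free part of the Cxcl9-carrying capillary cells.

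Most members carried few Cxcl9 molecules. Exactly 1 UMI was found in 38.1, 26.3, 42.5 and 36.5% of the members of the run B libraries, and the highest cell held 80. Over all members the level in UMIs of the gene per 1000000 UMIs of the summed cells (CPM) was 873, 852, 458 and 588 in run B and 373, 348, 2564 and 1406 in run A. The value of 2564 rests on 3 cells, of which 1 held 41 of their 43 UMIs. At the edge of the rule, 1064 members held exactly 1 Cxcl9 UMI, while the 4152 gate cells outside held none. Likewise 65 members held exactly 2 of the 6 capillary genes, and 41 cells were left out because they held 1.

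The markers given for the capillary label are the genes of the rule, so their detection in members is fixed in part by it and is a description. In run B, Gpihbp1 was detected in 97.8 to 99.8% of members and Timp4 in 89.9, 93.5, 77.3 and 66.2%. Timp4 stood at 1439, 1816, 611 and 451 CPM in these members, higher in both chow libraries than in both high fat libraries. The Cxcl9-free gate cells had 611, 1225, 435 and 338 CPM. Car4, a carbonic anhydrase of capillary surfaces, stood at 695, 618, 986 and 1037 CPM in members, in the opposite order of the diets.

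Within run B, the thinned share of cells with Cxcl9 was lower in every other endothelial class than in the capillary gate of the same library. Cells with Gja5, an arterial connexin, had 1.71, 3.23, 3.27 and 6.61%. Cells with Selp, the venous selectin, had 0.43, 8.49, 8.05 and 10.7%, and cells with Prox1, the lymphatic master regulator, 2.90, 1.46, 0.98 and 0.88%. In mesentery on chow of run B the lymphatic class was thus above the venous class, and in the other 3 libraries below it. In run A, with 69 to 147 gate cells a library, the Selp class had 2.27, 3.01, 0.57 and 1.06% against 2.95, 2.19, 2.59 and 15.6% in the capillary gate, so it was the higher one in adipose on chow. Macrophages, known elsewhere as a source of Cxcl9, had 0.0, 0.0, 0.47 and 0.19% in 20, 14, 101 and 415 cells of run B. In adipose on chow of run A, 1 of 6 macrophages held Cxcl9. T and B cells, which served as the measure of free RNA, held Cxcl9 in 0 of 209 cells of run B, which allows a share of up to 1.44% over these cells pooled. Of them 131 came from mesentery on chow and 60 from mesentery on high fat, but 6 from adipose on chow, where Cxcl9 was highest, and 12 from adipose on high fat, too few to limit free RNA there.

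**Figure D2:**
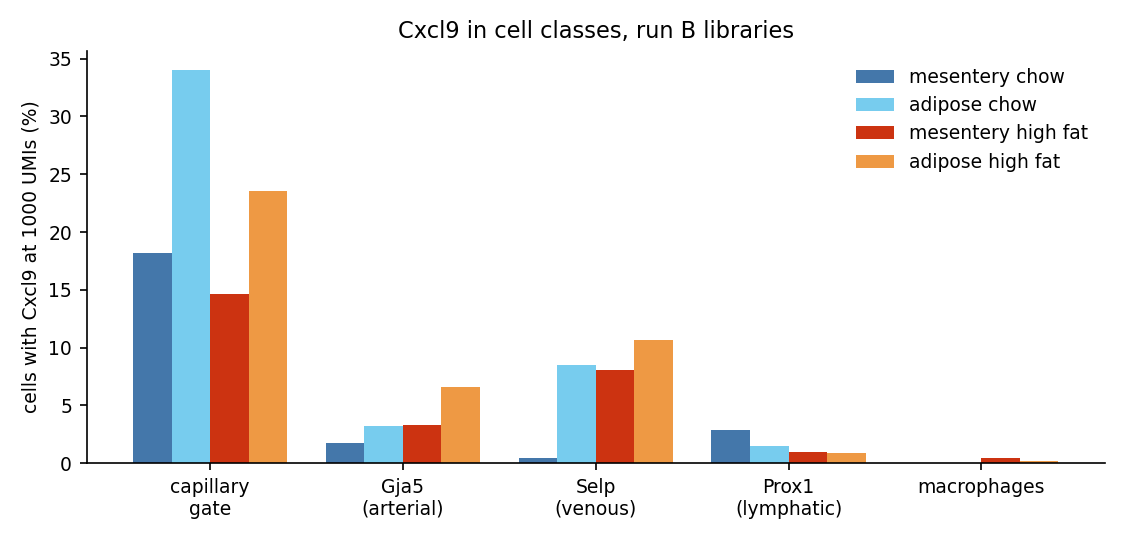
Percent of cells with a Cxcl9 UMI after thinning to 1000 UMIs, for 5 cell classes in the 4 run B libraries, 1 bar per library. Capillary gate cells reach 14.7 to 34.0%, Selp cells up to 10.7% and macrophages at most 0.47%.

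Cells with a UMI of Pecam1 or Cdh5, whether or not they also held Ptprc, had 97.6 to 99.3% of all Cxcl9 UMIs in the run B libraries. Members alone held 35.3 and 32.3% of them on chow and 65.1 and 77.8% on high fat, the chow values being lower where the Adipoq condition took out most cells. Ifng, the gene of interferon gamma, had 0 to 45 UMIs per library, 0 of them in members.

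The question of what else goes with Cxcl9 in a capillary cell was put by summing the UMIs of members and of Cxcl9-free gate cells in each of the 5 libraries. Each member was matched to the 2 free cells of its library nearest in UMI total. In 3 run B libraries, all but mesentery on chow, this used up all free cells, so members stayed deeper there, with median UMIs of 4639, 5277 and 4618 against 2676, 3701 and 2737. Of 11525 genes tested with edgeR's quasi-likelihood test at a Benjamini-Hochberg adjusted p under 0.05, 1237 differed (10.7%): 472 were higher in members (4.1%) and 765 lower (6.64%). A second comparison, added after the data were seen, asked for at least 4 capillary genes and for 0 UMIs of 10 arterial, venous and lymphatic genes in the cells of both sides, and paired them 1 to 1 within 10% of the UMI total. These 10 genes were Lyve1, Mmrn1, Pdpn, Reln, Bmx, Stmn2, Gja4, Fbln5, Vwf and Ackr1. This stricter gate called 168 of 8972 genes (1.87%), 75 higher (0.836%) and 93 lower (1.04%), of which 127 were also called the same way at first. Without adipose on chow B the first count was 762, and without adipose on high fat B it was 810.

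Arterial and lymphatic markers were lower in members than in the free cells of the gate, while venous markers were divided. All 8 arterial and all 6 tested lymphatic markers were lower in members, while 6.64% of all genes were. Hey1, a Notch target of arteries, stood at 24.9, 37.0, 35.0, 29.5 and 12.0 CPM in members against 98.3, 135, 84.4, 80.5 and 81.8 in free cells. The groups did not overlap, and Hey1 fell by 1.61 on the log2 scale (SE 0.104), with a value of -1.24 in the stricter gate. Lyve1, the lymphatic hyaluronan receptor, was at 0.0 to 48.1 CPM in members against 7.37 to 1002 in free cells. Summed over the 6 lymphatic markers found, the level was 31.9 to 385 CPM in members against 97.4 to 3005 in free cells. In the stricter gate the sums were 23.8 to 58.6 against 27.6 to 59.0 CPM. That gate held Lyve1, Mmrn1, Pdpn and Reln at 0 on both sides, so its sums are fixed in part by selection. Stmn2, Mmrn1, Gja4, Fgl2, Col8a1, Fn1, Ptprr, Alpl and Tgfb2 were among the 12 lowest by p as well, with log2 differences from -1.76 to -5.11. Of these, only Col8a1 and Ptprr were tested in the stricter gate, and neither was called (adjusted p = 0.773 and 0.588). Stmn2, Mmrn1 and Gja4 were held at 0 there by selection. Of 8 venous markers Vwf, Lrg1 and Ackr1 were lower and 5 were not called. Nr2f2, a venous transcription factor, was higher in the stricter gate, by 0.61. Vwf and Ackr1 were held at 0 there by selection, and 0 of the 5 venous markers tested were lower. The summed venous level in that gate was 311 to 645 CPM in members against 275 to 472 in free cells, higher in 5 of 5 libraries. The part of these markers in the results below was not tested.

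Glul, glutamine synthetase, was lower in members in both gates. It stood at 108, 65.1, 138, 184 and 96.2 CPM in members against 338, 154, 347, 409 and 204 in free cells. In no library did the member value reach the free value. Glul fell by 1.32 (SE 0.082, adjusted p = 3.67e-08), with a value of -0.72 in the stricter gate (adjusted p = 1.97e-07).

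The interferon-induced GTPases, guanylate-binding proteins (GBP) and immunity-related GTPases (IRG) that attack the membranes around intracellular pathogens, were higher in members as a group. Of 15 tested, 8 rose and 0 fell, with a median log2 difference of 0.35 beside 0.002 over all genes, and 4.1% of all genes rose. In the stricter gate 7 rose and 0 fell, with a median of 0.41 beside -0.004, and 0.836% of all genes rose. Gbp4, Gbp7, Iigp1, Tgtp2 and Gvin1 rose in both gates, Gbp2, Gbp5 and Gbp9 in the first and Gbp6 and Igtp in the stricter. Several of these genes have near-identical neighbours, Tgtp1 and Tgtp2 among them, so reads may have been split between copies.

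Iigp1, an IRG GTPase, was the most abundant of them. It stood at 432, 380, 694, 528 and 241 CPM in members and at 316, 323, 457, 370 and 81.8 CPM in free cells. The member value was higher in 5 of 5 libraries, although the ranges of both sides overlapped across libraries. Iigp1 rose by 0.49 (SE 0.087, adjusted p = 0.00124), and by 0.60 (SE 0.102) in the stricter gate. Gbp4 stood at 167, 152, 262, 219 and 156 CPM in members against 150, 145, 194, 169 and 61.3 in free cells. It rose by 0.29 (adjusted p = 0.0337) and by 0.48 in the stricter gate (adjusted p = 0.000906). In adipose on high fat A, 8 of the 13 Gbp4 UMIs of members lay in 1 cell, and without it the level there was 60.1 CPM, so the rise is seen in the 4 run B libraries. Without mesentery on high fat B or without adipose on high fat B, its first adjusted p was 0.196 and 0.178.

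The receptor and signalling genes of interferon gamma showed less. Of 9 tested, Ifngr1, the ligand-binding chain of the receptor, rose and 0 fell, with a list median of 0.12, while 4.1% of all genes rose. Ifngr1 stood at 436, 501, 361, 405 and 349 CPM in members against 335, 362, 300, 318 and 184 in free cells, higher in 5 of 5 libraries. Its difference of 0.39 (SE 0.072, adjusted p = 0.00159) was 0.23 in the stricter gate (adjusted p = 0.366). Irf1, an interferon-induced transcription factor, had differences of 0.12 and -0.01 (adjusted p = 0.527 and 0.999).

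Cxcl10 went with Cxcl9 but in few cells. It stood at 26.2, 6.56, 15.1, 15.1 and 24.1 CPM in members against 3.02, 1.48, 2.30, 1.26 and 47.7 in free cells. Members were higher in the 4 run B libraries and lower in the run A library, where 2 UMIs in 31 members stood against 11 in all 116 free gate cells. The difference was 2.62 (SE 0.338, adjusted p = 7.54e-05) and 3.40 in the stricter gate. With libraries of at least 5 members let in, the call ended, at 1.22 (adjusted p = 0.134). Cxcl10 was found in 2.74, 2.70, 4.30 and 2.85% of members of run B, against 0.86, 0.39, 0.94 and 0.35% of all free gate cells. In mesentery on chow B, 23 of the 39 Cxcl10 UMIs of members came from 1 cell. Without that cell the level there was 10.7 CPM. The highest member held 19 of 60 UMIs in mesentery on high fat B and 29 of 89 in adipose on high fat B. In adipose on chow B it held 4 of 39.

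While 4.1% of all genes rose, 1 of 9 tested T cell ligands and checkpoints did. It was Cd274, which encodes the T cell checkpoint ligand PD-L1. In run B it stood at 56.5, 38.5, 50.7 and 38.8 CPM in members against 41.2, 19.9, 28.4 and 27.1 CPM in free cells, higher in 4 of 4 libraries. In adipose on high fat A the members had 0 UMIs. Cd274 rose by 0.68 (SE 0.115, adjusted p = 0.000768), and by 0.82 in the stricter gate (adjusted p = 0.000259).

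Type I interferon-stimulated genes as a list stayed near the rest, with a median of 0.01. Of 25 genes 1 was higher, Ifi35 at 0.46, while 4.1% of all genes rose. In the stricter gate the median was 0.18 and 2 genes rose, Ifi35 by 0.39 and Stat2 by 0.67, while 0.836% of all genes rose. Of 20 genes of MHC class I presentation, Erap1, a peptide-trimming aminopeptidase, rose by 0.27 and H2-Q6 fell by 0.30, and the stricter gate called 0 of 20. Of 7 genes of MHC class II presentation, 4 fell, Cd74, H2-Aa, H2-Ab1 and H2-Eb1. In the stricter gate Cd74 alone fell, by 0.86. Of 9 macrophage markers tested 7 were also lower in members, while 6.64% of all genes were. Their sum was higher in members on chow, at 24.9 and 19.8 CPM against 20.4 and 11.1 in free cells. On high fat it was lower, at 38.6, 290 and 96.2 against 116, 586 and 102 CPM. UMIs of macrophage genes were found in 6.3, 4.2, 17.0, 45.8 and 19.4% of members against 4.1, 3.0, 16.1, 33.9 and 6.5% of free cells. The part of macrophage RNA in the class II difference was not tested.

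Fatty acid and lipoprotein genes were higher in members. Of 16 tested, 10 rose and 0 fell, with a median of 0.30 beside 0.002 over all genes, of which 4.1% rose. Within the stricter gate 6 of 15 rose and 0 fell, with a median of 0.22 beside -0.004 over all genes, of which 0.836% rose. Cd36, a fatty acid translocase, stood at 5751, 6309, 6179, 7076 and 2670 CPM in members against 3335, 4306, 5065, 5520 and 1213 in free cells. Members were higher in each library. Cd36 rose by 0.58 (SE 0.085, adjusted p = 0.000213), and by 0.33 in the stricter gate. Fabp4, the cytosolic fatty acid carrier, rose by 0.44 and by 0.25, from free cell levels of 17654 to 60218 CPM to member levels of 34465 to 66558. Fabp5, Lpl, Meox2 and Angptl4 also rose in both gates, while Pparg, Scarb1, Aqp7 and Plin2 rose in the first. Of 8 adipocyte markers 0 were called in the first gate and 1 rose in the stricter (medians 0.40 and 0.24). In 1 to 1 pairs of the first gate 5 rose and 0 fell, where 9.81% of all genes were called. Their sum was 2363, 2096, 172, 74.9 and 72.2 CPM in members against 1049, 2060, 142, 78.0 and 27.3 in free cells. The part of adipocyte RNA in the fatty acid results was not tested.

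Among 17 other capillary genes 9 rose and Plvap alone fell, with a median of 0.26, while 4.1% of all genes rose and 6.64% fell. The stricter gate had 3 that rose and again Plvap alone that fell, with a median of 0.08. There 0.836% of all genes rose and 1.04% fell. Aqp1, a water channel, stood at 2420, 1839, 1482, 1043 and 1527 CPM in members against 1111, 654, 864, 565 and 1104 in free cells. It was higher in 5 of 5 libraries and rose by 0.98 (SE 0.104, adjusted p = 9.9e-06), and by 0.52 in the stricter gate. Cldn5, a tight junction claudin, rose by 0.52 and 0.37, and Cyp4b1, a cytochrome P450 enzyme, by 0.49 and 0.38. Plvap, which forms the diaphragms of fenestrae and caveolae, stood at 214, 35.0, 185, 224 and 180 CPM in members against 1111, 183, 408, 293 and 382 in free cells. The Plvap difference was -1.50 (adjusted p = 0.000309), and -1.30 in the stricter gate.

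**Figure D3:**
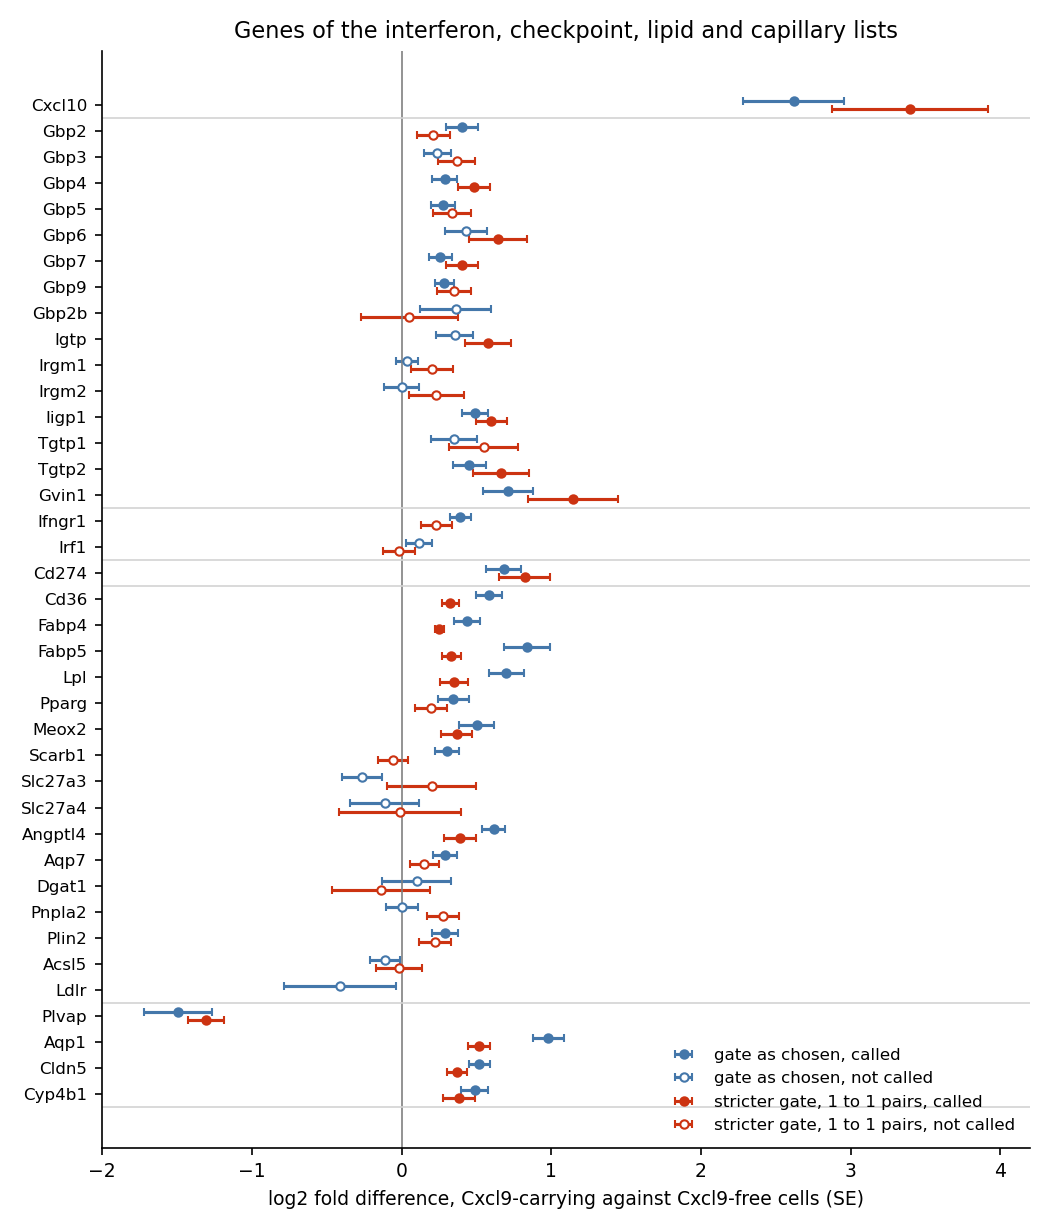
Log2 difference between Cxcl9-carrying and Cxcl9-free capillary cells with its standard error, for Cxcl10, the GTPases, 2 genes of interferon gamma signalling, Cd274, fatty acid genes and 4 other capillary genes. Blue is the gate as chosen and red the stricter gate; filled points were called. No GTPase and no fatty acid gene was called lower in either gate.

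Genes outside the lists that rose most reliably included Pxdn, Sult1a1, Bmp6, Ssh2 and Chchd10, each called in both gates. Pxdn, which cross-links collagen of the basement membrane, stood at 232, 228, 187, 127 and 144 CPM in members against 105, 126, 124, 75.3 and 95.4 in free cells. It rose by 0.82 (SE 0.079, adjusted p = 4.1e-06), and by 0.39 in the stricter gate, although 6 of its 12 UMIs in members of adipose on high fat A lay in 1 cell (72.1 CPM without it). Bmp6, a bone morphogenetic protein, rose by 0.79 and 0.50, and Sult1a1, a sulfotransferase, by 0.72 and 0.47. Arhgap18, Trp53i11, Slc28a2, Fscn1, Aplnr and Egln1 rose by 0.58 to 0.90. Their differences were 0.14 to 0.34 in the stricter gate, with adjusted p from 0.0835 to 0.795. Of these genes, Trp53i11 and Aplnr are on the list of tip cell and angiogenic genes and are counted there too.

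Tip cell and angiogenic genes split. Of 15 tested, Apln, Aplnr, Col4a2, Plxnd1, Trp53i11 and Adm rose, and Esm1 and Kcne3 fell, while 4.1% of all genes rose and 6.64% fell. In the stricter gate Adm, the vasodilator peptide adrenomedullin, rose by 0.73 and Esm1, Nid2 and Lamb1 fell. Adm was found in 21.9 and 24.9% of members on chow and 10.2 and 7.36% on high fat in run B, against 4.66, 6.30, 4.72 and 2.59% of all free gate cells.

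The remaining lists showed few calls. Of all genes 4.1% rose and 6.64% fell in the first gate, and 0.836% and 1.04% in the stricter. Podxl fell among 8 leukocyte adhesion genes and Tnfaip2 among 13 targets of NF-kappaB, and neither was called in the stricter gate (adjusted p = 0.225 and 0.552). Of 10 other chemokine genes Cxcl16 rose, and Cx3cl1, Ackr2 and Ackr3 fell, none of which was called in the stricter gate. There 5 genes of this list were tested, and 1 fell. Of 17 immediate early and dissociation genes, Egr1 rose in both gates, by 0.55 and 0.79, while Fos, Hspa1b, Klf2 and Klf4 fell in the first and were not called in the stricter (differences of -0.09 to 0.06). Of 11 cell cycle genes, 2 rose and 1 fell in the first gate, and 0 rose and 3 of 5 fell in the stricter.

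Levels were also laid out by the number of Cxcl9 UMIs in a cell, in the stricter gate of run B, as a description. Iigp1 went from 276, 284, 502 and 356 CPM in cells without Cxcl9 to 862, 529, 1097 and 1090 CPM in cells with 10 or more UMIs. Gbp4 went from 140, 119, 169 and 148 CPM to 496, 193, 593 and 428 CPM. Cxcl10 was at most 1.8 CPM without Cxcl9 and 94.5, 5.2, 157 and 29.8 CPM at 10 or more. Isg15, a type I interferon-stimulated gene, was 158, 88.3, 144 and 156 CPM without Cxcl9 and 142, 102, 266 and 246 CPM at 10 or more. Ifit3, another such gene, went from 53.1, 28.8, 61.8 and 60.4 CPM to 142, 31.4, 191 and 130 CPM. Of MHC class I genes, H2-K1 went from 1785, 1214, 1743 and 1347 CPM to 1452, 1456, 1805 and 1991. B2m went from 2265, 1430, 2129 and 1676 CPM to 3011, 2008, 2854 and 2724 CPM. Plvap went the other way, from 815, 32.6, 257 and 172 CPM to 11.8, 13.1, 136 and 78.1 CPM. Adipose on chow showed the smallest rise of Iigp1, Gbp4 and Cxcl10 among the 4 libraries. The highest class held 12, 96, 18 and 34 cells, and cell depth rose along the classes too, in mesentery on chow from a median of 2538 to 6016 UMIs.

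**Figure D4:**
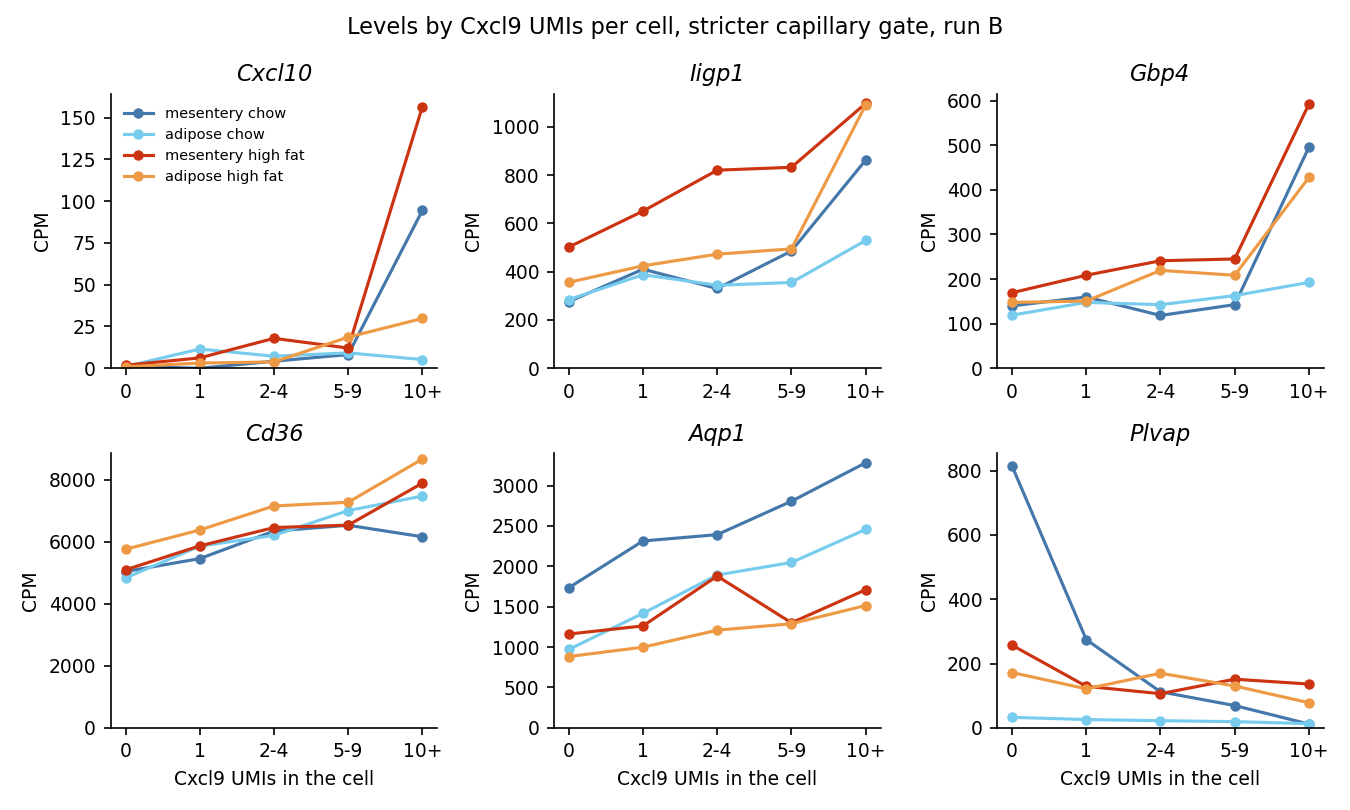
CPM of 6 genes in cells grouped by their number of Cxcl9 UMIs (0, 1, 2 to 4, 5 to 9, 10 or more), 1 line per run B library, in the stricter capillary gate. Iigp1, Gbp4 and Cxcl10 are highest in cells with 10 or more UMIs, except Cxcl10 in adipose on chow, and Plvap is highest in cells without Cxcl9.

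Whether the genes that go with Cxcl9 differ between the diets was tested as an interaction term. Of 11525 genes, 31 had a different member effect on high fat and chow (0.269%), 26 with a larger log2 value on high fat (0.226%) and 5 with a smaller one (0.0434%). With the run as a block, 21 of 12172 genes were called (0.173%), 20 of them in common, and the stricter gate called 8 (0.0892%). Among the 5 libraries, adipose on high fat A was the only one of run A. The run block thus in effect set that library aside, and is no separate check of the run B libraries. Without mesentery on chow B the count was 81 and without adipose on chow B 131, and without either adipose on high fat library it was 18.

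Plvap, which was called in the first comparison, under the run block and in the stricter gate, had a smaller deficit in members on high fat. On chow its level was 214 CPM in members against 1111 in free cells of mesentery, and 35.0 against 183 CPM in adipose. On high fat the levels were closer, at 185 against 408, 224 against 293 and, in run A, 180 against 382 CPM. The log2 deficit of members was smaller on high fat by 1.62 (SE 0.175, adjusted p = 5.51e-06), and by 1.34 in the stricter gate (adjusted p = 1.96e-05). With the run as a block, which sets adipose on high fat A aside, the value was 1.62. Adm had the reverse pattern, with members above free cells more on chow (73.3 against 20.03 and 80.0 against 25.1 CPM) than on high fat (30.0 against 20.1, 20.5 against 11.3 and 84.2 against 68.1 CPM). Its interaction was -1.07 (adjusted p = 0.0451), with an adjusted p of 0.0807 under the run block and 0.748 in the stricter gate.

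Between the tissues the member effect differed in 5 of 11525 genes (0.0434%): Cygb, Aspn, Cytl1, Kcnj8 and Hist1h2ae, all with a larger value in mesentery; the last 4 are named after their values were seen. Under the run block edgeR called 0 genes at adjusted p, with 527 of 12172 at an unadjusted p under 0.05, and gave adjusted p = 0.204 for Cygb, a globin of pericytes and fibroblasts. DESeq2 called 4, and the stricter gate 11 (0.123%) with 1 in common. Kcnj8 and Aspn are known from mural cells and fibroblasts. Mural markers summed to 198, 506, 629, 453 and 265 CPM in members against 365, 1246, 808, 891 and 647 in free cells. Their part in these 5 calls was not tested.

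The diets were compared within the members of the 5 libraries, 3 on high fat and 2 on chow, in a model with tissue and diet. Of 11014 genes, 150 differed (1.36%), 54 higher on high fat (0.49%) and 96 lower (0.872%). With the run as a block, which again in effect set adipose on high fat A aside, 471 of 11617 genes were called (4.05%). All 150 were among them. The 2 chow libraries are both of run B. The count was 28, 35 or 37 without adipose on chow B, mesentery on chow B or mesentery on high fat B, 84 without adipose on high fat B and 396 without adipose on high fat A. The 3 chow and mesentery libraries of run A had too few members to enter, so their capillary gate cells are given beside the results.

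Adipocyte genes were lower in members on high fat. Cfd, adipsin, stood at 983 and 619 CPM in members on chow and at 10.6, 3.73 and 0.0 CPM on high fat. Both chow libraries lay far above the high fat libraries (801 ± 257 against 4.77 ± 5.37 CPM, SD, n = 2 and 3), and Cfd fell by 6.89 (SE 0.397, adjusted p = 5.39e-06). Retn, the adipokine resistin, fell by 4.60, from 185 and 177 CPM to 13.1, 3.05 and 12.0. Scd1, Rbp4 and Cdo1 fell likewise, with log2 differences of -3.47, -4.15 and -4.21. Of 8 adipocyte markers 7 fell, while 0.872% of all genes did. Their sum in members was 2363 and 2096 CPM on chow against 172, 74.9 and 72.2 on high fat. In the run A gate cells Cfd was 16.9 and 24.5 CPM on chow, from 4 UMIs each, against 0 on high fat. Retn there had 0 UMIs on chow against 0 and 3 on high fat, and Rbp4 0 against 0 and 1. Scd1 had 7 and 3 UMIs on chow against 2 and 1 on high fat, and Cdo1 1 and 1 against 0 and 1. Adipocyte RNA in the chow libraries of run B and expression by the members cannot be told apart here, and the members were already required to be free of Adipoq.

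Some genes that are not adipocyte markers also fell. Cyp1a1, the enzyme induced by the aryl hydrocarbon receptor, stood at 123 and 32.8 CPM in members on chow and had 0 UMIs on high fat, against 378 on chow. Members on high fat were thus at least 169-fold lower, taking 3 UMIs over the group as the floor. In the run A gate cells, mesentery on chow held 5 Cyp1a1 UMIs and the other 3 libraries 0. DESeq2 gave Cyp1a1 an adjusted p of 0.649. Cyp26b1, which degrades retinoic acid, stood at 176 and 25.2 CPM on chow against 18.7, 2.54 and 0.0 on high fat, and fell by 3.21. The value of adipose on chow lay close to that of mesentery on high fat, and without mesentery on chow B the adjusted p was 0.112. Hmcn1, an extracellular matrix gene, fell by 3.08, but in the run A gate it was 12.6 and 6.12 CPM on chow against 66.0 and 13.6 on high fat.

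Among the 8 genes with the smallest p that were higher in members on high fat were Fbln5, Postn, Col3a1, Lamb1, Fblim1 and Nepn. Fbln5, an elastic fibre protein also listed as arterial, stood at 126, 180 and 108 CPM on high fat and at 31.6 and 45.1 on chow (138 ± 37.7 against 38.3 ± 9.52 CPM, SD, n = 3 and 2). In adipose on high fat A 8 of its 9 UMIs lay in 1 cell, and without that cell the level was 12.0 CPM, below both chow values. In mesentery on chow B 20 of 47 lay in 1 cell. It rose by 1.99 (SE 0.211, adjusted p = 0.000308). Postn, periostin, rose by 2.14, Col3a1, a fibrillar collagen chain, by 1.67, Lamb1, a laminin chain, by 1.48, and Fblim1, a filamin-binding adaptor, by 1.76. Nepn, a leucine-rich proteoglycan named for tip cells here, rose by 1.85. In the run A gate Fbln5 was 257 and 514 CPM on chow against 516 and 336 on high fat. Postn was 4.21 and 55.1 there against 24.8 and 20.4, and Fblim1 33.7 and 49.0 against 20.6 and 51.0. Lamb1 was 59.0 and 79.6 against 90.8 and 78.1. Col3a1 was 0.0 and 24.5 against 4.13 and 234, and Nepn 0.0 and 6.12 against 0.0 and 30.6. In adipose of run A, Fbln5 and Postn were thus lower on high fat, while Col3a1 and Nepn were higher. Col3a1 is also on the list of fibroblast markers and was found in 8.09 and 8.15% of members on high fat of run B, against 3.56 and 4.65% on chow. Of 5 fibroblast markers tested Col3a1 alone was called, with a list median of 0.64, and of 8 mural markers 0 were called, with a median of 0.57, beside -0.005 over all genes. Summed fibroblast markers stood at 147, 93.4 and 217 CPM in members on high fat and 104 and 78.9 CPM on chow, and their part in these results was not tested. Each of these 6 genes lost its call when mesentery on chow B, adipose on chow B or mesentery on high fat B was left out, with adjusted p from 0.11 to 1.0 and values of 1.30 to 2.76.

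Lgals3, galectin-3, stood at 25.7, 168 and 24.1 CPM on high fat against 8.07 and 18.0 on chow, and rose by 2.79 (adjusted p = 0.00412). The value of 168 CPM came from adipose on high fat B, and without that library the difference was 1.34 (adjusted p = 0.855). In the run A gate Lgals3 was 16.9 and 104 CPM on chow against 70.2 and 61.2 on high fat. Macrophages use Lgals3, and 6 of 8 macrophage markers tested rose too, while 0.49% of all genes did. UMIs of macrophage genes were found in 6.3, 4.2, 17.0, 45.8 and 19.4% of members. Without those cells 292 of 10486 genes were called (2.78%), 136 of the 150 among them. Lgals3 was still called higher on high fat in that fit.

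Some GTPases were higher in members on high fat. Of 15 tested, 3 rose, 12 were not called and 0 fell, while 0.49% of all genes rose. The median was 0.64 beside -0.005 over all genes. Under the run block 11 of 16 rose, with a median of 0.72, where 1.97% of all genes rose. Igtp rose by 1.23 (adjusted p = 0.00772), standing at 104, 68.3 and 108 CPM on high fat and 50.4 and 29.8 on chow, and Gbp6 by 1.19. Gbp2b had 255 UMIs in members on high fat and 0 on chow, which makes it at least 63.5-fold higher. It is a near-identical neighbour of other GBP genes, and in adipose on high fat A 10 of its 11 UMIs lay in 1 cell. In the run A gate it was 21.1 and 6.12 CPM on chow against 28.9 and 51.0 on high fat, so the chow libraries of run A did hold it. Iigp1 had a difference of 0.41 (adjusted p = 0.96), and of 0.64 under the run block (adjusted p = 0.0136).

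Of all genes 0.49% rose and 0.872% fell on high fat. Among the other lists Ccl2, a monocyte chemokine, rose by 1.86 and Ctss, the cathepsin of antigen presentation, by 2.91, from levels of at most 6.72 CPM on chow. Of the Ccl2 UMIs in members on chow, 8 of 10 in mesentery and 13 of 20 in adipose lay in 1 cell each. Ctss was the single called gene of 7 of MHC class II presentation, and without cells with macrophage UMIs 0 of 7 were called. Of 14 genes of tip cells tested, Lamb1 and Nepn rose, as given above, with a list median of 0.32. Esm1, Angpt2 and Adm fell, with log2 differences of -1.71, -1.48 and -1.49, though Adm was at 84.2 CPM in adipose on high fat A. Ifi27l2a fell by 1.71 as the single called gene of 25 type I interferon-stimulated genes, which had a median of 0.44. Under the run block 5 of these 25 rose and 1 fell, and without cells with macrophage UMIs 6 rose and 1 fell, where 1.21% of all genes rose. Kcna5, a potassium channel, fell by 0.94 among 17 capillary genes. Of 9 genes of interferon gamma signalling 0 were called, and of 16 fatty acid genes 0, against 1 and 4 under the run block. Fabp5 was closest, at 3710, 4510 and 4510 CPM on high fat and 1498 and 1819 on chow, with a difference of 1.34 (adjusted p = 0.0514), called under the run block at 1.37.

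**Figure D5:**
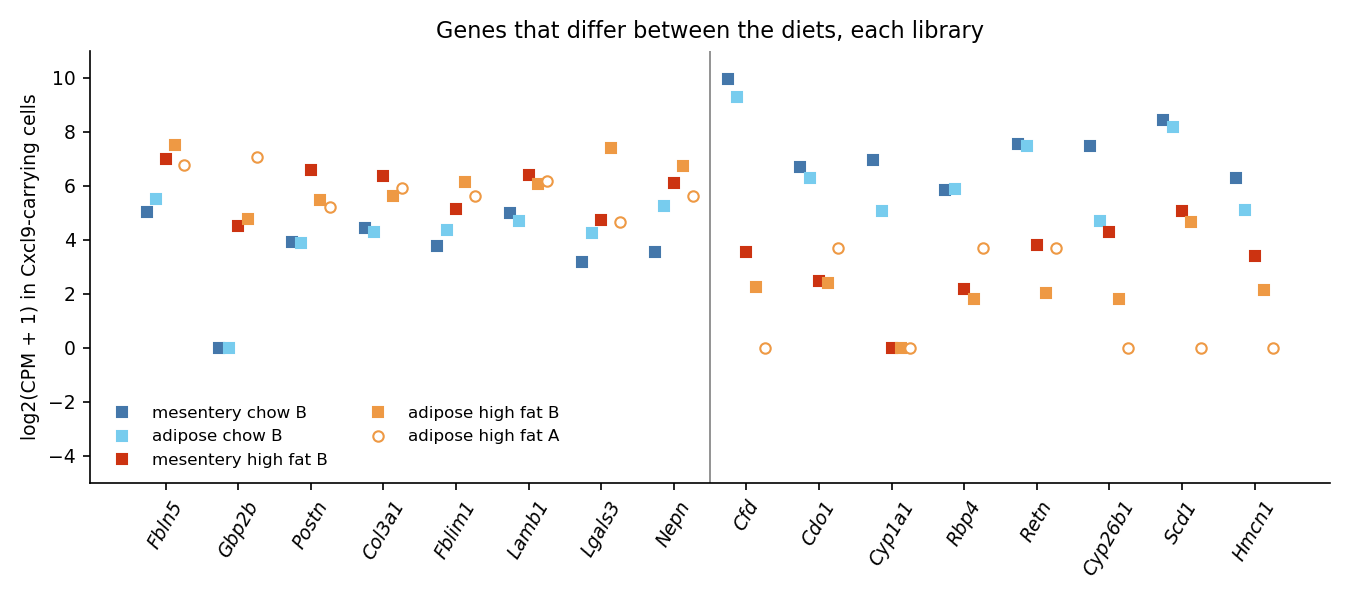
Log2(CPM + 1) in Cxcl9-carrying cells of the 5 libraries for the 8 genes with the smallest p that were higher on high fat (left of the line) and the 8 that were lower (right). Squares are run B and circles run A, and a point at 0 is a library without a UMI. Cfd falls from 983 and 619 CPM on chow to at most 10.6 CPM on high fat.

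Between the tissues 18 of 11014 genes differed within members (0.163%), 16 higher in mesentery (0.145%) and 2 lower (0.0182%), and 79 of 11617 under the run block (0.68%), all 18 among them. Edn1, the vasoconstrictor peptide endothelin-1, stood at 112 and 102 CPM in mesentery and at 26.7, 40.2 and 72.2 in adipose, without overlap. It rose by 1.63 in mesentery (SE 0.229, adjusted p = 0.0133). Leaving out any of the 4 run B libraries ended the call, with adjusted p of 0.0528 to 1.0, and in the run A gate the values were 96.9 and 94.9 CPM in mesentery against 196 and 136 in adipose. Igkc, an antibody light chain gene of B cells, was called at 8.69, but 341 of its 389 UMIs in mesentery on chow B lay in 1 cell. Nkx2-3, a homeobox gene of gut vessels named here after its values were seen, stood at 21.4 and 14.3 CPM in mesenteric members of run B and 93.3 and 179 CPM in the 5 and 3 mesenteric members of run A. It had 0 UMIs in the members of all 4 adipose libraries.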

How the data were processed

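The 8 libraries are 10x Genomics 3' libraries, 2 per group of tissue and diet. The values deposited by the authors are raw UMI counts, 1 matrix a library. Per the file headers, Cell Ranger 3.0.2 wrote run A and 5.0.0 run B, and the submitters' processing notes name mm10 and Seurat 4.3.0. The 30406 genes common to both feature lists were used.

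Members and gene lists were chosen with earlier results of these data known. Counts were summed per library and state and tested with edgeR 4.0.16 in R 4.3.3 (TMM factors, filterByExpr, Benjamini-Hochberg adjustment over all genes tested). Library was a covariate for members against Cxcl9-free cells, and tissue plus diet a model within members. The 14 genes of the rule took no test. CPM is the count of a gene per 1000000 UMIs of the summed cells. DESeq2 1.42.0 and limma 3.58.1 (voom) were alternatives, with other normalisation, filters, comparison cells and libraries left out. Genes named outside the lists passed an adjusted p of 0.05, moved 1 way in every library and reached 50 CPM on 1 side: the 12 smallest p per direction for members against free cells, 8 for the others. Scripts were tested on simulated data. No doublets were removed at first; an alternative leaves out the top Scrublet scores (scanpy 1.11.5, 858 cells or 3.58%, 55 of them members).

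The run letters pair the samples: the labels describe a repeat of the experiment, and deviations from the group means correlated at 0.729 to 0.806 between the same runs of 6 pairs of groups, over 3362 genes. For members against free cells, library was a covariate, so the gene p-values measure how that difference varied between libraries. The diet and tissue fits within members left 2 residual degrees of freedom over 5 libraries. Only adipose on high fat entered with both runs, so these p-values measure the spread between pools of mice only in part. A gene whose UMIs sit in 1 cell is not guarded against by these models.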

Additional observations from a re-analysis of the deposited data

Results flagged for a closer look

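The genes below had a member effect, the log2 difference of Cxcl9-carrying against Cxcl9-free cells, that differed between groups by an interaction term in edgeR's quasi-likelihood test; none of these patterns has been explained here. Between the diets (high fat minus chow) the difference was 1.62 for Plvap, 1.32 for Fbln5, 1.30 for Lamb1, 1.41 for Enpp2, 0.89 for Ehd4, 2.45 for S100a4, 1.21 for Col18a1 and 0.88 for Mcam. For Adm it was -1.07.

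Fbln5 stood at 31.6 and 45.1 CPM in members against 280 and 303 in free cells on chow, and at 126, 180 and 108 against 373, 510 and 491 on high fat. The value of 108 CPM rests on 1 cell with 8 of 9 UMIs, without which it was 12.0 CPM. Lamb1, a laminin chain, stood at 30.9 and 24.9 against 55.2 and 50.9 CPM on chow, and at 83.0, 65.6 and 72.2 against 64.1, 51.7 and 102 on high fat. Of the 149 Enpp2 UMIs of members in mesentery on chow B, 56 lay in 1 cell. In the stricter gate the values of S100a4 and Col18a1 changed sign, to -2.07 and -0.29, and those of Lamb1, Enpp2, Ehd4 and Mcam were 0.25, 0.92, 0.81 and 0.36 with adjusted p of 0.336 to 1.0.

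The 4 haemoglobin genes had differences of -6.68 for Hbb-bt, -5.35 for Hbb-bs, -4.53 for Hba-a2 and -4.77 for Hba-a1. Few cells carry these UMIs: of the 2524 Hbb-bs UMIs of free cells in mesentery on high fat B, 2488 lay in 1 cell. These genes are near-identical copies, and the digestion included a lysis of red cells.

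Between the tissues (mesentery minus adipose) the difference was 0.96 for Cygb, which stood at 25.5 and 75.4 CPM in members against 29.5 and 77.3 in free cells of mesentery, and at 34.1, 59.5 and 36.1 against 77.4, 114 and 81.8 in adipose.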

How the results depend on the processing

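The share differences stayed above 0.05 in the exact permutation test in every alternative run, but the replicate block could not pass it, its smallest exact p being 0.0556. The diet difference changed sign to 2.05 points without thinning, 1.68 at 2000 UMIs and, leaving out mesentery on high fat A, mesentery on chow B or adipose on chow B, to 3.63, 1.07 or 6.34, and ranged from -4.26 to 6.34 over libraries left out. The tissue difference stayed negative, from -14.8 to -4.20. With labels permuted within runs (the replicate block), the exact permutation p was 0.9444 for diet and 0.1667 for tissue.

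Genes that differ from Cxcl9-free cells numbered 168 in the stricter gate and 762 to 1208 with a library left out. Run A alone could not be fitted, having 1 library with enough members. The member by diet count was 17 in 1 to 1 pairs, 8 in the stricter gate, 13 in DESeq2, 92 unfiltered, 21 under the replicate block and 18 to 131 with a library left out. The member by tissue count was 11, 59 and 0 in the stricter gate, unfiltered and under the replicate block, and 0 to 95 with a library left out. Diet within members gave 505 genes unfiltered, 471 under the replicate block, 235 with at least 5 members, 292 without cells with macrophage UMIs and 28 to 396 with a library left out. Tissue gave 152, 79, 57 and 84 in the same order, and 11 to 52. The replicate block ended the calls of Adm and Cygb. Of the named genes, 3 changed sign, all in the stricter gate: S100a4 (-2.07), Col18a1 (-0.29) and Irf1 (-0.015). The causes were not tested. The run A libraries held 3 to 31 members each, and 3 of the 4 did not enter the gene comparisons.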
